A study of Homo sapiens with 6 samples.

Results

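The MYC, MAX and MXD network was described from 10 genes, chosen by symbol: MYC, MYCN, MYCL, MAX, MXD1, MXD3, MXD4, MXI1, MNT and MGA. All 10 were found among the 19903 genes listed in each library, MYCL under its older symbol MYCL1. Messenger RNA was sequenced from 3 human lines, each carrying a malin vector (NHLRC1-overexpression in the labels) or an empty vector, with 1 library per line and vector. The groups were therefore 3 malin libraries and 3 empty-vector libraries, all at passage 5 and obtained from ATCC per the labels. A549 and H2030 are lung adenocarcinoma lines, and H1299 is a large-cell lung carcinoma line. The promoter that drives malin, the use of clones or pools, and the independence of the cultures are not given in the labels. The value column of the malin library labelled H2030 bore a name for HEK293T, a cell line of human embryonic kidney, so that pair is called the libraries labelled H2030.

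MYC proteins are transcription factors that bind E-box DNA only as dimers with MAX, and they drive ribosome production, metabolism and the cell cycle. MXD1, MXI1, MXD3, MXD4 and MNT compete for MAX, bind the same E-boxes and recruit the SIN3 corepressor with its histone deacetylases. MGA is a very large MAX partner that belongs to a polycomb repressive complex. MYC amplification and loss of MGA or MAX are recurrent in lung cancers, and malin is an E3 ubiquitin ligase known for its part in glycogen regulation.

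Values were FPKM, fragments scaled to transcript length and to the mapped total of the library, so levels of different genes can be compared. The libraries held an estimated 8300000 to 10700000 fragments each, from the steps between low values. With malin and empty vector, NHLRC1 stood at 3.69 and 0.18 FPKM in the H2030-labelled pair, 119.2 and 2.85 FPKM in H1299, and 6.82 and 1.21 FPKM in A549, higher with malin each time. Of 9 lung epithelial markers, 5 and 6 reached 1 FPKM with malin and empty vector in the libraries labelled H2030, 3 and 3 in H1299, and 4 and 5 in A549. Their summed level, mostly the keratins KRT7, KRT8 and KRT18, was lowest in the H2030-labelled libraries, at 163.1 and 186.4 FPKM. It was 952.9 and 953.4 FPKM in H1299 and highest in A549, at 3167 and 3875 FPKM. NKX2-1, the lung lineage factor, was at 3.78 and 1.85 FPKM, 0.6 and 0.77 FPKM, and 0 and 0 FPKM in these lines, and the surfactant genes SFTPB and SFTPC stood at 0.11 FPKM or less in all 6 libraries. Of 8 kidney developmental genes, 6 reached 1 FPKM in both libraries labelled H2030, 4 in both of H1299 and 3 in both of A549. The 6 fibroblast markers found summed to 16.1 and 12.7 FPKM in the H2030-labelled libraries and to at most 2.41 FPKM in the other 4. The 5 neuronal markers summed to 97.9 and 74.0 FPKM, 256.2 and 244.6 FPKM, and 199.3 and 165.5 FPKM, but they differed in order. NEFL (31.7 and 23.4 FPKM) and NEFM (52.6 and 30.5 FPKM) were highest in the H2030-labelled pair, against at most 4.61 and 2.11 FPKM elsewhere. TUBB3, INA and NEFH were highest in H1299. The 5 immune markers found summed to 6.93 and 7.10 FPKM, 55.6 and 48.6 FPKM, and 16.2 and 15.8 FPKM, led in H1299 and A549 by the lysosomal gene CD68, while the leukocyte marker PTPRC was at most 0.07 FPKM. The 4 endothelial markers summed to at most 0.53 FPKM. The part of cell identity in any line difference was not tested. In bulk RNA, fewer cells of a type and less RNA per cell cannot be told apart.

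The promoters of 4 members are shown because MXD4 and MNT hold the E-box CACGTG there, while MYCL and MXD1 differed most between vectors within the H2030-labelled pair. Each sequence is the 250 bases before the start of transcription in RefSeq (GRCh38.p14), written 5′ to 3′ in the direction of the gene, with CACGTG in capitals.
MXD4 (chr4:2262110-2262359, minus strand): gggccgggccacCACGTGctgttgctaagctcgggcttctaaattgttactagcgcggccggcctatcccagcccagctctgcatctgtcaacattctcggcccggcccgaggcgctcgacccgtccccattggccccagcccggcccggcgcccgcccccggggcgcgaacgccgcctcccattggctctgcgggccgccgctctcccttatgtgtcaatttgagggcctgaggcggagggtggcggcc
MNT (chr17:2401061-2401310, minus strand): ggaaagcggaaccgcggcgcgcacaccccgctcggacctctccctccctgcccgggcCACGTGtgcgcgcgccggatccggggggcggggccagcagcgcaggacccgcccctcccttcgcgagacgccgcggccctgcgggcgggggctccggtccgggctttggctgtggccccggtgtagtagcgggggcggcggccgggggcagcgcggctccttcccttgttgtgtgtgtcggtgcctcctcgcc
MYCL (chr1:39901918-39902167, minus strand): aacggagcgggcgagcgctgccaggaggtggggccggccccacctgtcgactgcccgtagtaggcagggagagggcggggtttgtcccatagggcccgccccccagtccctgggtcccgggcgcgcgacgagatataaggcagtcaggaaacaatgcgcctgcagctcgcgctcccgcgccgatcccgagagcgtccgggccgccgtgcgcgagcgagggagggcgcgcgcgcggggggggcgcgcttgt
MXD1 (chr2:69914859-69915108, plus strand): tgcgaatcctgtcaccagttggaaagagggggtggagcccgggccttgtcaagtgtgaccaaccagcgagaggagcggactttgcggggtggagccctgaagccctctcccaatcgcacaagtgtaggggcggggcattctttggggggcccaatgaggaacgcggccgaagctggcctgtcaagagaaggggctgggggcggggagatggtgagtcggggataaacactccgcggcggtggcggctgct
The hexamer starts 238 bases before the start in MXD4 and 193 bases before it in MNT. CACGTG reads the same on both strands and was found in 2 of 14 such windows of 9 members (14.3%), and in 6.3% of all 35116 windows. The related CACGCG, searched on both strands as CACGCG and CGCGTG, was found in 1 of the 14 windows, at an alternative start of MGA, and in 9.7% of all windows. These are matches of letters in short windows and no record of binding.

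On build hg38 (GENCODE release 29) MYC lies on chromosome 8 from 127735434 to 127741434, MYCN on chromosome 2 from 15940564 to 15947007, and MYCL on chromosome 1 from 39895426 to 39902256. MAX lies on chromosome 14 from 65006174 to 65102695. MXD1 lies on chromosome 2 from 69897688 to 69942945, MXD3 on chromosome 5 from 177301461 to 177312757, MXD4 on chromosome 4 from 2247432 to 2262294, and MXI1 on chromosome 10 from 110207605 to 110287365. MNT lies on chromosome 17 from 2384060 to 2401118, and MGA on chromosome 15 from 41621224 to 41773081. All are protein-coding genes, and each value is 1 level per gene over its annotated transcripts, so the alternative starts of MXI1, MAX and MGA were not told apart.

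MYC was by far the most abundant member of the network in every library. Its level was 121.8 and 88.0 FPKM with malin and empty vector in the libraries labelled H2030, 82.9 and 83.7 FPKM in H1299, and 74.3 and 68.6 FPKM in A549. The malin library labelled H2030 stood above the other 5, and each level was at or above that of 93.8% to 97.0% of protein-coding genes. MYC alone made up 95.3% to 99.7% of the summed level of the 3 MYC family genes.

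MYCN, the paralog best known from neuroblastoma, was close to undetected. It was listed at 0.12 and 0.19 FPKM with malin and empty vector in the libraries labelled H2030, 0 and 0.04 FPKM in H1299, and 0 and 0 FPKM in A549. These correspond to an estimated 3 and 4 fragments, 0 and 1 fragment, and 0 and 0 fragments. A count of 0 allows a level of up to 0.121 FPKM in the H1299 malin library and up to 0.115 and 0.116 FPKM in the A549 malin and empty-vector libraries (3 fragments, counting error only). No order of the lines can be read at this depth, and MYCN shares its locus with an antisense gene. It did not reach the mean of 1 FPKM set for testing, which the other 9 members passed.

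MYCL, the paralog first found in small-cell lung cancer, stood under 1 FPKM outside the pair labelled H2030. Its level was 5.85 and 2.71 FPKM with malin and empty vector in that pair, 0.38 and 0.27 FPKM in H1299, and 0.24 and 0.45 FPKM in A549. The libraries labelled H2030 lay apart from the other 4, and the malin one was the higher. MYCL passed the filter on low values only through that pair, so a difference from the other lines had to follow.

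MAX, the shared dimer partner, varied little. It stood at 30.0 and 35.0 FPKM with malin and empty vector in the libraries labelled H2030, 26.6 and 29.9 FPKM in H1299, and 25.5 and 23.3 FPKM in A549. The highest library was 1.5 times the lowest. MAX lay below MYC in each library, by a gap that was widest in the malin library labelled H2030.

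Among the antagonists MXD3, the member linked to proliferating cells, was the most abundant in each library. It stood at 24.8 and 27.7 FPKM with malin and empty vector in the libraries labelled H2030, 27.9 and 30.6 FPKM in H1299, and 19.7 and 21.6 FPKM in A549. A549 had the lowest pair of values, and in each line the malin library was the lower. MXD4, an antagonist associated with differentiation and quiescence, was at 22.6 and 18.4 FPKM in the H2030-labelled pair, 11.8 and 11.3 FPKM in H1299, and 7.40 and 5.92 FPKM in A549. Its levels were highest in the libraries labelled H2030 and lowest in A549. The share of all genes that keep the 3 lines apart in this way was not counted.

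MXI1, which binds MAX and carries a SIN3 interaction domain like the other MXD proteins, stood at 11.8 and 14.98 FPKM with malin and empty vector in the libraries labelled H2030, 5.76 and 5.41 FPKM in H1299, and 2.87 and 2.88 FPKM in A549. Its levels had the same order of lines as those of MXD4. MXD1, an antagonist induced when myeloid and epithelial cells differentiate, was at 1.34 and 2.98 FPKM in the H2030-labelled pair, 4.65 and 4.63 FPKM in H1299, and 1.48 and 1.09 FPKM in A549. H1299 stood above the other lines, and the pair labelled H2030 overlapped A549.

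MNT, the broadly expressed antagonist, was the steadiest of the 9 members tested. It was at 5.76 and 6.74 FPKM with malin and empty vector in the libraries labelled H2030, 6.13 and 6.56 FPKM in H1299, and 5.26 and 6.02 FPKM in A549. All 6 libraries lay within 1.28-fold of each other. MGA stood at 8.10 and 8.15 FPKM in the H2030-labelled pair, 8.10 and 8.85 FPKM in H1299, and 5.03 and 4.57 FPKM in A549, with A549 below the other 4 libraries.

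**Figure D1:**
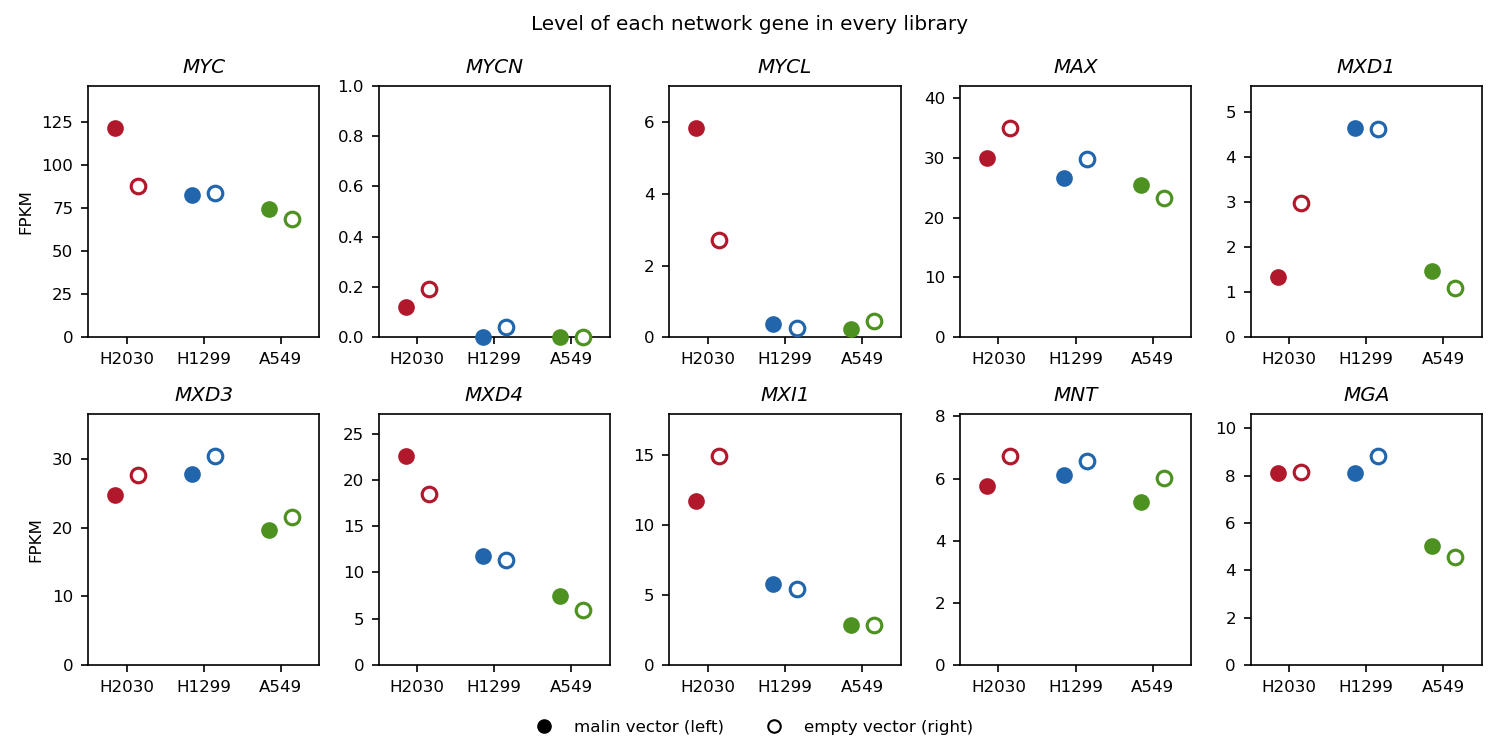
FPKM (y axis, linear, from 0) of the 10 genes in the 6 libraries, by line (H2030 means the libraries so labelled); filled points are malin libraries and open points empty-vector libraries, 1 library each. MYC reaches 121.8 FPKM in the malin library labelled H2030, MXD4 and MXI1 step down from H2030 to H1299 to A549, and MNT stays between 5.26 and 6.74 FPKM.

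The ratio of 2 sums within a library is the same whichever single factor scales that library, as in median-of-ratios scaling, though quantile normalization can change it. The 3 MYC family genes summed to 1.72 and 1.15 times the 6 antagonists with malin and empty vector in the libraries labelled H2030, 1.30 and 1.25 times in H1299, and 1.79 and 1.64 times in A549. The ratio was higher with malin in each line, by little in H1299, and there is no replicate within a line. The antagonists summed to 74.4 and 79.0 FPKM, 64.3 and 67.3 FPKM, and 41.8 and 42.1 FPKM in the same order. Their makeup differed between lines. MXD3 held 33.4% and 35.1% of the summed antagonist level in the libraries labelled H2030, 43.4% and 45.4% in H1299, and 47.2% and 51.4% in A549. MXI1 held 15.8% and 19.0% in the libraries labelled H2030, 9.0% and 8.0% in H1299, and 6.9% and 6.8% in A549. MXD4 held 30.4% and 23.3%, 18.3% and 16.8%, and 17.7% and 14.1% in the same order. H1299 had the largest share of MXD1, at 7.2% and 6.9%.

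**Figure D2:**
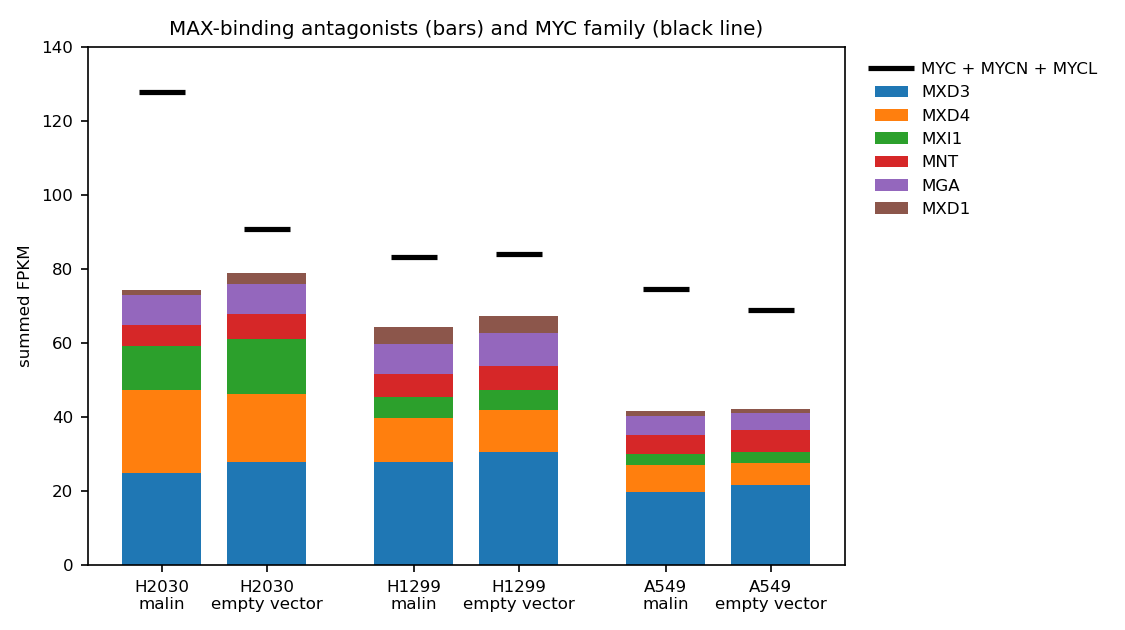
Summed FPKM (y axis, from 0) of the 6 MAX-binding antagonists, stacked by gene, in each of the 6 libraries (malin left, empty vector right, 1 library each), with the summed MYC family as a black line. The black line lies above the bar in every library, and MXD3 makes up 33.4% to 51.4% of the bar.

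Malin and empty vector were compared over the lines in a fit that pairs the libraries of a line. None of the 9 members passed an adjusted p of 0.05, and 0 of 12184 protein-coding genes did (0%; limma). NHLRC1, higher with malin in each line, was not called either. The fit has 2 residual degrees of freedom, so a lack of calls does not show that levels were unchanged. Before adjustment, 213 genes (1.75%) and 0 members had a p under 0.05. MYC had a mean log2 difference of 0.19 ± 0.11 between malin and empty vector (limma's SE; 95% interval -0.08 to 0.45; adjusted p = 0.927). Its mean level was 93.0 ± 25.3 FPKM in the malin libraries and 80.1 ± 10.2 FPKM in the empty-vector libraries (SD, n = 3 each). These differences are on the log2(FPKM+1) scale, which understates the change of low genes.

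MXD4 was higher with malin in all 3 lines, with a mean log2 difference of 0.20 ± 0.10 (limma's SE; interval -0.04 to 0.45; adjusted p = 0.927). MXD3 was lower with malin in all 3 lines, with a mean of -0.14 ± 0.08 (limma's SE; interval -0.33 to 0.06; adjusted p = 0.927). The SD of its differences over the 3 lines was 0.02. MNT was lower in all 3 lines, at -0.15 ± 0.10 (limma's SE; interval -0.40 to 0.10; adjusted p = 0.927), with an SD of 0.06 over the lines. Thus 3 of 9 members had the same direction in all 3 lines, where 22.4% of all genes did. MYC was lower by 0.01 in H1299 and higher in the other lines. For MAX, MXD1, MXI1, MGA and MYCL the lines also differed in sign, with means of -0.09, -0.17, -0.08, -0.003 and 0.26. The limma intervals stayed within 1.5-fold, 0.58 on the log2 scale of FPKM+1, for MYC, MAX, MXD3, MXD4, MXI1, MNT and MGA. For MXD1 and MYCL they reach -0.68 and 0.80. The intervals rest on 3 lines, with 2 residual degrees of freedom and 3.9 more that limma borrows from all genes. With so few lines, an interval within 1.5-fold cannot exclude a shared change of that size. Without H1299 the differences were 0.29 ± 0.14 for MYC and 0.28 ± 0.16 for MXD4 (limma's SE). Without A549 they were 0.226 ± 0.159 and 0.166 ± 0.16. Without the libraries labelled H2030 they were 0.0512 ± 0.055 for MYC and 0.165 ± 0.105 for MXD4.

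Within a line there was 1 library per vector, so differences are values without a replicate check. In the libraries labelled H2030, 2 of 9 members lay past 1.5-fold in FPKM+1, where 11.6% of all genes did. MYCL was higher with malin, by 0.88 on the log2 scale, and 3.2% of genes lay at least as far from 0. MXD1 was lower, at -0.77, and 5.2% of genes lay as far out. MYC was higher by 0.46, short of 1.5-fold, and 19.7% of genes lay as far out. Its estimated 2732 and 1655 fragments give a depth-corrected ratio of 1.38, with an exact binomial 95% interval of 1.3 to 1.47 that covers counting error only. With a pseudocount of 5 in place of 1, neither MYCL nor MXD1 stayed past 1.5-fold.

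In H1299, the line with the highest NHLRC1 level, 0 of 9 members differed by 1.5-fold, where 0.484% of all genes did. MYC was at a ratio of 0.991 there (interval 0.93 to 1.06, counting error only). MAX had the largest difference, -0.16 on the log2 scale. In A549, 0 of 9 members passed 1.5-fold, where 1.13% of all genes did, although MYCL passed it with a pseudocount of 0.1. MXD4 had the largest difference, 0.28, with an estimated 304 and 241 fragments and a ratio of 1.25 (interval 1.05 to 1.49). MYC stood at a ratio of 1.08 (interval 1.01 to 1.16). Over all genes the log2 differences had an SD of 0.40 in the libraries labelled H2030, 0.16 in H1299 and 0.18 in A549, so the widest member differences fell in the pair where all genes differed most.

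**Figure D3:**
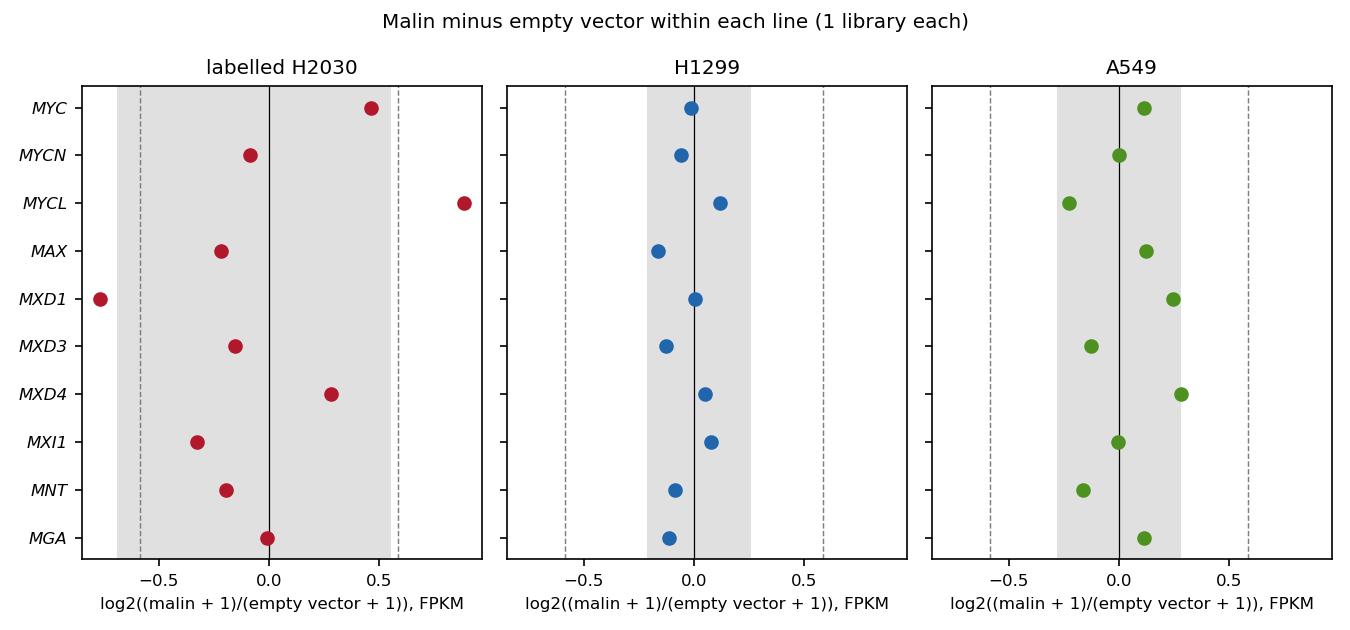
Log2 difference of FPKM+1, malin minus empty vector (x axis), for each of the 10 genes within each line; grey bands hold the central 90% of all 12184 genes tested and dashed lines mark 1.5-fold. MYCL (0.88) and MXD1 (-0.77) lie past 1.5-fold in the libraries labelled H2030, and in H1299 and A549 all members lie inside it.

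Differences between lines were tested with the vector as a term, over 2 libraries per line that carry different vectors and are not replicate cultures. The scaling of libraries matters here. As deposited, the median of all genes was 0.29 higher in the libraries labelled H2030 than in A549 on the log2 scale, and 0.22 higher than in H1299. Median-of-ratios scaling moved these medians by -0.32 and -0.24, to -0.04 and -0.02. Member differences are therefore given in both scalings.

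Against A549, 7 of 9 members were higher in the libraries labelled H2030, where 45% of all genes were higher, and 0 members were lower, where 22.1% of genes were (limma, adjusted p under 0.05). With median-of-ratios scaling 3 of 9 members were higher, MXD4, MXI1 and MYCL, where 30.2% of all genes were. With that scaling 0 members were lower, where 34.4% of genes were. The share of calls that were higher fell to 46.7%, against 67.1% as deposited (quantile normalization, 54.1%). MXI1 averaged 13.4 ± 2.28 FPKM in the H2030-labelled pair and 2.88 ± 0.007 FPKM in A549 (SD, n = 2 each), a log2 difference of 1.88 ± 0.15 (limma's SE; adjusted p = 0.000156), and of 1.57 after scaling (adjusted p = 0.000191). MXD4 averaged 20.5 ± 2.96 and 6.66 ± 1.05 FPKM in the same lines, a difference of 1.49 ± 0.12 (limma, adjusted p = 0.000173), and of 1.15 after scaling (adjusted p = 0.000452). MYCL differed by 1.91 ± 0.27 (limma, adjusted p = 0.00136), which the filter on low values had fixed in advance.

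MYC averaged 104.9 ± 23.9 FPKM in the H2030-labelled pair and 71.4 ± 4.08 FPKM in A549 (SD, n = 2 each). Its log2 difference of 0.53 ± 0.13 passed as deposited (limma, adjusted p = 0.0133) and with quantile normalization (0.55, adjusted p = 0.0191). It was 0.17 and did not pass with median-of-ratios scaling (limma, adjusted p = 0.35), nor without either A549 library (limma, adjusted p = 0.0671 without empty vector, 0.115 without malin). It was 0.32 without the malin library labelled H2030 and 0.74 without the empty-vector one, and passed in both (limma, adjusted p = 0.00442 and 5.21e-05). MAX, MXD3 and MGA passed only as deposited among the 3 scalings, and MXD3 turned to -0.02 with median-of-ratios scaling. MNT did not pass (0.13 ± 0.13; limma, adjusted p = 0.408), and MXD1 did not pass either (0.42 ± 0.26; adjusted p = 0.188). With an A549 library left out, fewer members passed. MXI1 differed by 1.82 and MXD4 by 1.43 without the empty-vector one, and by 1.94 and 1.55 without the malin one.

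Against H1299, MXI1, MXD4 and MYCL were higher in the libraries labelled H2030 (3 of 9, where 40.9% of all genes were) and MXD1 was lower (1 of 9, where 23.8% of genes were). MYCL is among these 3 although the filter on low values had fixed its difference in advance, as against A549. MXI1 averaged 13.4 ± 2.28 FPKM in the H2030-labelled pair and 5.59 ± 0.25 FPKM in H1299 (SD, n = 2 each), a log2 difference of 1.12 ± 0.15 (limma, adjusted p = 0.00123), and of 0.87 after median-of-ratios scaling (adjusted p = 0.00235). MXD4 differed by 0.77 ± 0.12 (limma, adjusted p = 0.00238), and by 0.52 after scaling (adjusted p = 0.0134). MXD1 averaged 2.16 ± 1.16 and 4.64 ± 0.01 FPKM, a difference of -0.89 ± 0.26 (limma, adjusted p = 0.0236). That call did not pass without the H1299 malin library (limma, adjusted p = 0.146), without the H1299 empty-vector library (adjusted p = 0.0718) or with no filter on low values (adjusted p = 0.0563). It was -0.44 without the malin library labelled H2030 (limma, adjusted p = 0.037). The share of calls that were higher was 63.2% as deposited, 47.9% with median-of-ratios scaling and 53.1% with quantile normalization. MYC did not pass as deposited (0.31 ± 0.13; limma, adjusted p = 0.0827) and passed with quantile normalization (0.42, adjusted p = 0.0484) and without the empty-vector library labelled H2030 (0.52, adjusted p = 0.000364). It was 0.10 without the malin library labelled H2030 and 0.16 without the H1299 malin library, and passed in neither (limma, adjusted p = 0.226 and 0.535). MXD3 passed with median-of-ratios scaling alone, at -0.41 (limma, adjusted p = 0.0119).

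Between H1299 and A549, 5 antagonists passed the test, and MNT, MYC, MAX and MYCL did not. MXD1, MXI1, MXD4, MGA and MXD3 were higher in H1299 (5 of 9, where 34.5% of all genes were), and 0 members were lower, where 27.2% of genes were (limma, adjusted p under 0.05). The same 5 passed with median-of-ratios scaling and with quantile normalization, where 31.4% and 31.3% of all genes were higher. MXD1 averaged 4.64 ± 0.01 FPKM in H1299 and 1.29 ± 0.28 FPKM in A549 (SD, n = 2 each), a log2 difference of 1.31 ± 0.26 (limma, adjusted p = 0.00591). MXI1 differed by 0.76 ± 0.15, MXD4 by 0.72 ± 0.12, MGA by 0.71 ± 0.13 and MXD3 by 0.48 ± 0.10 (limma, adjusted p between 0.00369 and 0.00667). MYC differed by 0.22 (interval -0.10 to 0.54; limma, adjusted p = 0.195) and MAX by 0.20 (interval -0.10 to 0.50; adjusted p = 0.196). In a fit of these lines alone MYC passed at the same difference (limma, adjusted p = 0.00802). There 9374 of 12184 genes passed, against 7510 in the fit of all lines. MNT differed by 0.15 (limma, adjusted p = 0.347). MXD1, MXI1, MXD4, MGA and MXD3 stayed higher in H1299 with any 1 library of these lines left out, but fewer of them passed.

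**Figure D4:**
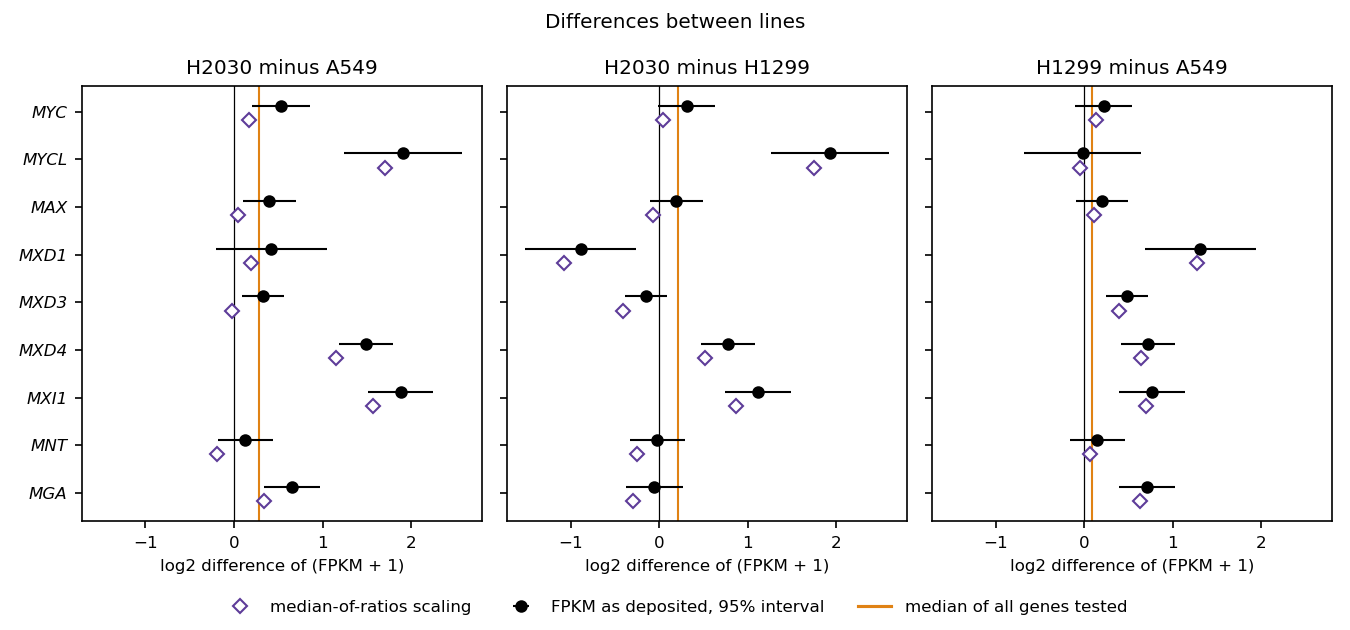
Log2 difference of FPKM+1 between lines (x axis) for the 9 members tested: black points with 95% intervals are values as deposited (limma, 2 libraries per line), open diamonds are values after median-of-ratios scaling, and the orange line is the median of all genes as deposited. MXI1 and MXD4 lie right of the orange line in all 3 panels, and MNT lies within 0.15 of 0 as deposited.

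Genes whose pattern over the 6 libraries was most like that of the 4 members with the widest range were found by Pearson's r of log2(FPKM+1), as a description over 6 libraries from 3 lines. MXI1 was closest to FOXP2, HOXB9 and STK25 (r = 0.9997, 0.9995 and 0.9993). MXD4 was closest to CASZ1, FBXL6 and SF3A1 (r = 0.9983, 0.9981 and 0.998). MYCL was close to ALDH9A1 and HSD17B4 (r = 0.9985 and 0.9984), and MXD1 was closest to CCNL1, SBDS and UBALD2 (r = 0.9971, 0.9957 and 0.9931). An r of at least 0.95 was reached by 5.34% of all genes with MYCL, 8.55% with MXI1, 5.98% with MXD4 and 1.72% with MXD1.

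Genes that work with the network were taken as lists, none of whose members passed between vectors (limma, 0 in each of 6 lists). In the parallel MLX branch, MLXIP (MondoA) and MLXIPL (ChREBP) bind MLX and respond to glucose metabolites. MLXIPL was at 4.74 and 4.17 FPKM with malin and empty vector in the libraries labelled H2030, 0.42 and 0.18 FPKM in H1299, and 0.31 and 0.53 FPKM in A549. TXNIP, a known target that restrains glucose uptake, was at 15.2 and 22.9 FPKM in the H2030-labelled pair, while it was listed at 0 and 0 FPKM in H1299 and at 0.03 and 0 FPKM in A549. ARRDC4, another target of that branch, was at 11.9 and 13.8 FPKM, against at most 0.39 FPKM in the other 4 libraries. The 5 genes of the branch had a median log2 difference between vectors of 0.02, against -0.01 over all genes.

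Of 25 genes that control MYC stability or serve as cofactors, the median difference between vectors was -0.02. PIM1, a kinase that phosphorylates MYC, was at 12.7 and 21.7 FPKM with malin and empty vector in the libraries labelled H2030, and MYCBP at 26.1 and 16.5 FPKM. These were the 2 of 25 past 1.5-fold there, where 11.6% of all genes were. Between the libraries labelled H2030 and A549, 17 of the 25 were higher and 4 lower as deposited (limma), where 45% and 22.1% of all genes were. With median-of-ratios scaling, tried on the lists after seeing the data, 8 were higher and 7 lower, where 30.2% and 34.4% of all genes were. SKP2, a ubiquitin ligase subunit that targets MYC, was at 61.9 and 61.2 FPKM with malin and empty vector in the libraries labelled H2030, and 12.2 and 11.04 FPKM in A549 (limma, adjusted p = 2.45e-05 as deposited, 2.72e-05 with median-of-ratios scaling). FBXW7, another ligase subunit for MYC, was at 13.2 and 12.2 FPKM and at 3 and 3.45 FPKM in the same lines (limma, adjusted p = 0.000168, or 0.000317 after scaling).

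Among 18 genes of the SIN3 and HDAC corepressor the median difference between vectors was -0.002, and among 14 polycomb partners of MGA and MAX it was -0.07. SAP30, a SIN3 subunit, was at 24.9 and 12.2 FPKM with malin and empty vector in the libraries labelled H2030 and was the 1 of 18 corepressor genes past 1.5-fold there, again beside 11.6% of all genes. HDAC1 was at 122.9 and 107.1 FPKM in the H2030-labelled pair and at 50.8 and 53.5 FPKM in A549 (limma, adjusted p = 0.000231, or 0.00146 after scaling). Of the 18 corepressor genes, 13 were higher and 2 lower in that contrast as deposited, where 45% and 22.1% of all genes were. After scaling 7 were higher and 4 lower, where 30.2% and 34.4% of all genes were. HDAC1 and HDAC2 also belong to the list of 14 polycomb partners, so the counts of these lists overlap. Of the polycomb partners, 10 of 14 were higher in the libraries labelled H2030 than in A549 and 0 were lower as deposited (limma), where 45% and 22.1% of all genes were. After median-of-ratios scaling 8 were higher and 1 lower, where 30.2% and 34.4% of all genes were. PCGF6, the subunit that defines this complex, was at 32.2 and 28.3 FPKM in the H2030-labelled pair and at 9.79 and 9.53 FPKM in A549 (limma, adjusted p = 9.55e-05, or 0.000225 after scaling).

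Of 42 textbook targets that MYC activates, 0 passed between vectors (limma). They had median log2 differences of 0.03 in the libraries labelled H2030, -0.03 in H1299 and 0.01 in A549, against -0.03, 0.005 and 0 over all genes. In the libraries labelled H2030, 4 of the 42 were higher by at least 1.5-fold and 2 lower, where 521 and 893 of 12184 genes were. LDHA, the lactate dehydrogenase A gene, was at 479.4 and 253.4 FPKM with malin and empty vector there, and HSPE1, a mitochondrial chaperonin, at 263.3 and 151.5 FPKM. SLC7A5, a neutral amino acid transporter, was at 59.7 and 112.9 FPKM. In H1299, 32 of the 42 were lower with malin and 10 higher, by small amounts, where 5695 and 6274 of all genes were. Between the libraries labelled H2030 and A549, 15 were higher and 13 lower as deposited (limma), where 45% and 22.1% of all genes were. After median-of-ratios scaling 7 were higher and 19 lower, where 30.2% and 34.4% of all genes were. With quantile normalization 18 were higher and 12 lower, where 34% and 28.9% of all genes were.

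Of 17 genes known to be lowered by MYC, 14 passed the filter on low values, and CDKN1C, GADD45G and PDGFRB did not. The 14 had a median log2 difference of -0.54 between malin and empty vector in the libraries labelled H2030, and of 0.03 in H1299 and 0.04 in A549. In the libraries labelled H2030, 7 of the 14 were lower by at least 1.5-fold and 0 higher, where 893 and 521 of 12184 genes were, without a replicate check. Over any size of difference, 9 of the 14 were lower and 5 higher there. GADD45A, a growth arrest and DNA damage gene, was at 24.3 and 78.4 FPKM with malin and empty vector there, and GADD45B at 6.97 and 16.8 FPKM. KLF4 and KLF6, zinc-finger factors that restrain growth, also had lower malin values, with 2.49 and 7.53 FPKM for KLF4 and 10.3 and 23.1 FPKM for KLF6. CDKN1A, the p21 inhibitor of cyclin-dependent kinases, was at 8.93 and 19.3 FPKM, and FTH1, the ferritin heavy chain, at 466.9 and 826.6 FPKM. Among the 5 that were higher with malin, CEBPA, a differentiation factor, was at 9.79 and 6.5 FPKM, NDRG1 at 50.1 and 36.5 FPKM and GAS1 at 9.42 and 6.79 FPKM. CDKN1A was highest in A549, at 65.1 and 57.9 FPKM. Between the libraries labelled H2030 and A549, 8 of the 14 were higher and 3 lower as deposited (limma), where 45% and 22.1% of all genes were. Their median log2 difference was 1.06 there, against 0.29 over all genes. After median-of-ratios scaling 7 were higher and 3 lower, where 30.2% and 34.4% of all genes were.

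**Figure D5:**
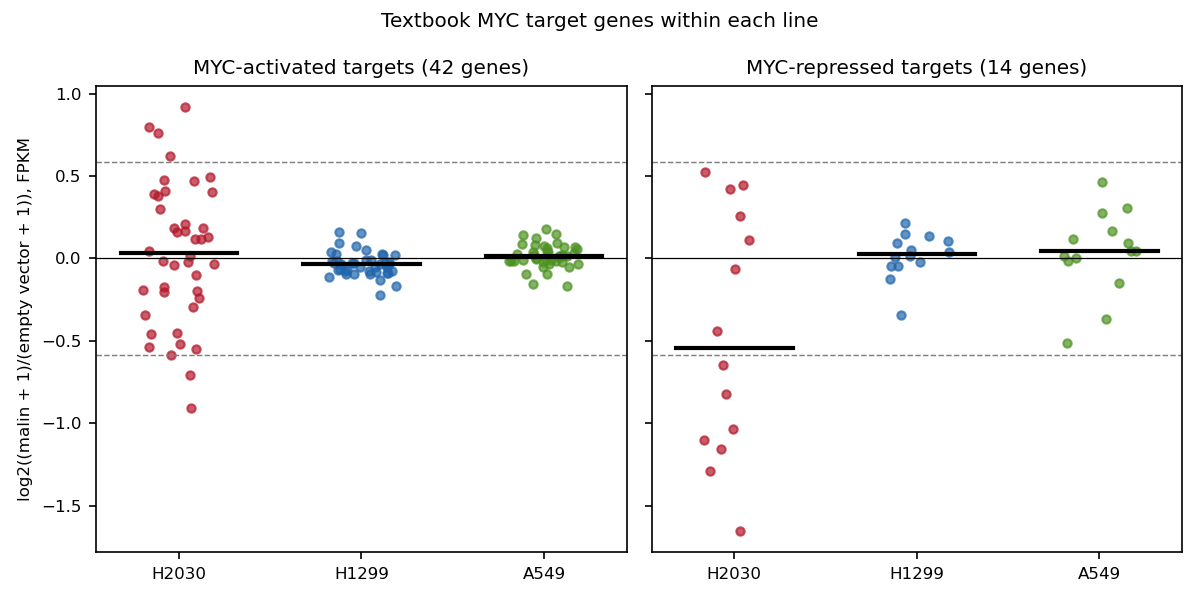
Log2 difference of FPKM+1, malin minus empty vector (y axis), for textbook MYC-activated (42) and MYC-repressed (14) genes in each line; each point is 1 gene, black bars are medians and dashed lines mark 1.5-fold. The repressed genes have a median of -0.54 in the libraries labelled H2030 and of 0.03 and 0.04 in H1299 and A549.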

How the data were processed

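The authors deposited one FPKM value per Entrez gene and library, a unit stated in the file headers. Cutadapt, FastQC, STAR, Cufflinks and build hg38 are listed in the submitters' processing notes, without versions, and whether strand was used is not stated there. Because FPKM is relative to a library's total, very abundant genes lower every other value. Members were matched by symbol, and gene classes came from RefSeq (19770 of 19903 genes matched). Samples were grouped by labelled vector and paired by cell line, since a pair shares its line. Each line and vector had 1 library, so p-values measure the spread between these libraries. Protein-coding genes with a mean of at least 1 FPKM (12184) were analysed as log2(FPKM+1) in limma 3.58.1 (R 4.3.3; intensity trend, 2 residual degrees of freedom), with Benjamini-Hochberg adjustment over all of them at 0.05. The fit was also run on simulated data that gave each gene the same error spread in all lines. In the data the SD of within-line differences was 0.40 in the libraries labelled H2030, 0.16 in H1299 and 0.18 in A549. That run therefore does not check the fit for lines of unequal spread. Within a line, genes past 1.5-fold were counted.

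Fragment numbers came from the steps between low values in genes that have 1 transcript, 600 to 2000 bases long, less 100 bases: 82.1% to 83.8% lay within 0.2 of a whole multiple. The step was chosen from the same values, so the intervals are approximate. Members and lists were chosen with earlier results of these data known. From each list up to 4 genes per comparison were named by size of difference. For the 4 members with the widest range the 3 genes most like each were named, except 1 that is not reported here. Settings also tried were a pseudocount of 0.1 or 5, a filter at 5 FPKM or none, median-of-ratios scaling, quantile normalization, all gene classes, no trend, no block or vector term, and fits without a line or library. Tables and figures were made in Python 3.11.15 with pandas 2.3.3, numpy 2.4.6, matplotlib 3.10.9 and scipy 1.17.1.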

Additional observations from a re-analysis of the deposited data

Results flagged for a closer look

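MYCL differed between vectors in opposite directions in 2 lines, with log2 differences between malin and empty vector of 0.88 in the libraries labelled H2030 and -0.23 in A549, where both levels were under 0.5 FPKM. MXD1 did so as well, with -0.77 in the libraries labelled H2030 and 0.25 in A549. Members were listed where both differences were at least 0.2. Each rests on 1 library per vector, and the difference between lines was not tested.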

How the results depend on the processing

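The vector comparison kept 0 genes and 0 members past the threshold under each alternative run, the fit with no replicate block among them (0 genes), except that 1 gene, not a member, passed without the libraries labelled H2030 (range 0 to 1 over lines left out). MGA, at -0.003, turned to 0.000167 with a pseudocount of 0.1 and 0.0127 with median-of-ratios scaling, and ranged from -0.0611 to 0.0533 over lines left out. MYCL ranged from -0.0529 to 0.502, MXD1 from -0.381 to 0.126 and MXI1 from -0.165 to 0.0365, each with its sign turned without the libraries labelled H2030. Between the libraries labelled H2030 and A549, 3 members were higher with median-of-ratios scaling (30.2% of all genes were). With quantile normalization 4 were (34% of all genes), against 7 as deposited (45%). There MXD3 (-0.0204) and MNT (-0.188) turned with median-of-ratios scaling, and MXD1 (-0.124) and MNT (-0.197) with quantile normalization. Against H1299, MAX turned to -0.0682 with median-of-ratios scaling. There 2 members and 5842 genes were called at a mean of at least 5 FPKM, against 4 members and 7877 genes in the main fit. MYCL and MXD1 were not tested at that filter. With a pseudocount of 5, 0 members passed 1.5-fold in the libraries labelled H2030, and with 0.1, 1 did in A549. With single libraries left out, calls ranged from 4564 to 4826 genes and 1 to 4 members between H1299 and A549, from 3 to 8 members between the libraries labelled H2030 and A549, and from 5227 to 8983 genes between those labelled H2030 and H1299. These fits leave 1 residual degree of freedom and assume that a lone library varies like the rest. MYCL ranged from -0.382 to 0.346 between H1299 and A549, MXD1 from -0.0234 to 0.869 between the libraries labelled H2030 and A549, and MNT (-0.0694 to 0.0264) and MGA (-0.137 to 0.0306) changed sign between those labelled H2030 and H1299. The causes were not tested. Of 372 member values between lines under alternatives, 327 kept direction and call, and of 106 between vectors, 99 did. Depth limits MYCN and the low MYCL values.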
